A study of Saccharomyces cerevisiae with 116 samples.

Results

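The genes described here are 9 mating genes of budding yeast (Saccharomyces cerevisiae), taken by their identifiers from the 7126 features of the count files. The α-specific genes are MF(ALPHA)1 (YPL187W), MF(ALPHA)2 (YGL089C), STE3 (YKL178C) and SAG1 (YJR004C). The a-specific genes are MFA1 (YDR461W), MFA2 (YNL145W), STE2 (YFL026W), STE6 (YKL209C) and AGA2 (YGL032C). They were chosen with their levels in the line HH1 already known, so the values of HH1 are given as a description, with no test. The other comparisons include every library of the series.

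Haploid yeast cells mate as type a or type α, and the MAT locus on chromosome III decides which. In α cells the protein α1, together with Mcm1, switches on the α-specific genes, while the protein α2, also with Mcm1, represses the a-specific genes. In diploid a/α cells a1 and α2 together repress the haploid-specific genes and the gene of α1, and α2 still represses the a-specific genes, so that a diploid normally makes little of either set. MF(ALPHA)1 and MF(ALPHA)2 encode precursors of the pheromone α-factor, STE3 encodes the receptor for a-factor, and SAG1 encodes α-agglutinin, which holds mating cells together. MFA1 and MFA2 encode precursors of a-factor, STE6 encodes the transporter that exports it, STE2 encodes the receptor for α-factor, and AGA2 encodes the binding subunit of a-agglutinin.

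RNA was sequenced in 116 libraries, from mutation accumulation lines with and without altered chromosome numbers and from the strains they descend from. In such an experiment, lines from 1 ancestor pass through repeated bottlenecks of a single colony, which keeps most new mutations. In the HH experiment 10 lines were aneuploid and 11 euploid, and in the Hh experiment 10 were aneuploid and 5 euploid. By label, aneuploid HH lines were trisomic for IX (HH15, HH88, HH119), V (HH117, HH123), XIV (HH9) or XVI (HH112). HH29 was monosomic for IX, HH108 trisomic for VIII and monosomic for IX, and HH152 trisomic for I and VII. Aneuploid Hh lines were trisomic for V (Hh4, Hh49), I (Hh7, Hh18), VII (Hh59, Hh61) or XII (Hh77). Hh8 was tetrasomic for XVI, Hh11 monosomic for I and trisomic for XV, and Hh76 trisomic for IX and XIV with a partial X. Each line was read in 3 colonies, and the ancestors in 3 libraries (Hh), 2 libraries (HH, run 2) and 3 libraries (HH, run 1). The HH lines and their ancestor were diploid, homozygous derivatives of S288C with the alleles ho, ade2, lys2-801, leu2-3.112, his3-delta-D200 and ura 3-52, and the lines had been carried for 2063 generations. The labels do not give the mating-type alleles of this strain. The Hh lines and their ancestor were heterozygous diploids with the alleles ho and ura3, from a cross of NCYC 3631, the Matalpha parent derived from the oak strain YPS606, with NCYC3596, the Mata parent derived from DBPVG1106. The Hh lines had been carried for 2108 generations. All cultures were grown at 30 °C in rich glucose medium. Each line is 1 lineage, so the line is the unit of replication between classes of lines, and colonies of a line are replicates of that line only.

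Libraries held 4129372 to 12148296 reads in genes. Names of HH line libraries begin with SC (14 lines, HH1 among them) or X (7 lines), and SC lines were set against SC lines below. Libraries of run 1 of the HH ancestor carry SC in their names too. That SC and X stand for the runs of the ancestor is an assumption. Labels gave an altered copy number for 72 pairs of a library and a chromosome. Of these, 7 pairs, in 6 libraries of 4 lines, had gene levels nearer to 2 copies than to the labelled number. These were chromosome VII of HH152 in all 3 colonies and chromosomes of replicate 1 of HH123, Hh11 and Hh59. Among them, chromosome I of Hh11 replicate 1, labelled with 1 copy, was raised, at a median log2 of 0.37. Chromosomes raised without a label were VIII in the 3 colonies of HH152 (0.48 to 0.60 in log2), XII in those of Hh18 (0.51 to 0.55) and XII in Hh11 replicate 1 (0.51). Leaving out all these libraries changed no call of a mating gene between classes. In bulk libraries, a change in how many cells express a gene cannot be told apart from a change in RNA per cell.

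The stretches that separate the sets of genes lie upstream of their start codons. The 400 bases before the start codon of 6001 protein-coding genes (RefSeq, build R64) were searched on both strands for the hexamer CATGTA, the core of the α2 recognition site. It was present in 908 windows (15.1%), among them those of 5 of 5 a-specific genes and 1 of 4 α-specific genes, SAG1. CATGTA followed after 19 bases by its reverse complement TACATG, a span of 31 bases, was present in 2 windows (0.0333%), those of MFA2 and STE2. The other a-specific genes had 1 exact hexamer at the matching place. The 5 stretches are shown because they hold the operator of the a-specific set, each read in the direction of its gene and with exact CATGTA or TACATG in capitals. MFA1, chrIV:1384932-1384982, plus strand, MFA2, chrXIV:352153-352203, plus strand, STE2, chrVI:82341-82391, plus strand, STE6, chrXI:46467-46517, minus strand, and AGA2, chrVII:437091-437141, minus strand, read as follows.
MFA1: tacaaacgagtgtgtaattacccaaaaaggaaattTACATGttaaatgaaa
MFA2: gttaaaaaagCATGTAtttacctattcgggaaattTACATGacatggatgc
STE2: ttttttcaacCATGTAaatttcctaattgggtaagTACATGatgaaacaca
STE6: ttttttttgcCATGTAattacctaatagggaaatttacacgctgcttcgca
AGA2: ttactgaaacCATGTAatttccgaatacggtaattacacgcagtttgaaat

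The hexamer TCAATG, the core of the α1 recognition site, was present in 1397 of the 6001 windows (23.3%), among them those of 3 of 4 α-specific genes (not MF(ALPHA)1) and 1 of 5 a-specific genes (MFA2). The hexamer TGAAAC, the core of the pheromone response element bound by Ste12, was present in 1518 windows (25.3%), in 2 of 4 α-specific and 5 of 5 a-specific genes. TGAAAC and TCAATG were searched separately from CATGTA, and matches of a hexamer are a description of letters, not of bound sites. The 3 α-specific stretches are shown because they hold the match to the α1 core, in capitals, as TCAATG or as its reverse complement CATTGA. MF(ALPHA)2, chrVII:345426-345476, minus strand, STE3, chrXI:114903-114953, minus strand, and SAG1, chrX:445188-445238, minus strand, read as follows.
MF(ALPHA)2: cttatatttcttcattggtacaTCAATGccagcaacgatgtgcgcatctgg
STE3: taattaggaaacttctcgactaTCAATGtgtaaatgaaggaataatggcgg
SAG1: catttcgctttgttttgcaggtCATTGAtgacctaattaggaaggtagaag

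The coding sequences of the genes lie on 7 nuclear chromosomes in R64, and none overlaps another annotated gene. MF(ALPHA)1 is on chromosome XVI (193648 to 194145, plus strand), MF(ALPHA)2 on VII (344791 to 345153, minus), STE3 on XI (113215 to 114627, minus) and SAG1 on X (442909 to 444861, minus). MFA1 is on IV (1385176 to 1385286, plus), MFA2 on XIV (352414 to 352530, plus), STE2 on VI (82580 to 83875, plus), STE6 on XI (42423 to 46295, minus) and AGA2 on VII (436570 to 436833, minus). Of the 424 stretches of 75 bases, the read length, in MF(ALPHA)1, 14 occur more than once in the genome, and none of the other 8 genes has such a stretch. Whether the further copies of these 14 lie inside MF(ALPHA)1 or elsewhere was not determined. MFA1 and MFA2, with coding lengths of 111 and 117 bases, are little longer than 1 read.

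Levels are given as CPM, the counts of a gene scaled to the reads in genes of its library (1000000 reads), and, between genes, as CPM per kb of coding length. In the 20 HH lines other than HH1, MFA1 had the highest median level (163 CPM per kb), followed by MFA2 (35.9), SAG1 (26.9), STE2 (16.8), AGA2 (15.8), STE6 (13.6), MF(ALPHA)2 (11.6), MF(ALPHA)1 (10.1) and STE3 (9.45). Each neighbouring pair in that order overlapped over the lines. In the 15 Hh lines the median levels were 37.9 CPM per kb for MFA2, 31.6 for MFA1, 20.1 for SAG1, 15.8 for STE6, 15.6 for STE2, 13.5 for MF(ALPHA)2 and 12.2 for AGA2, and then 2.204 for STE3 and 1.82 for MF(ALPHA)1. STE3 stood below AGA2 without overlap over the Hh lines, and the other neighbours overlapped.

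MF(ALPHA)1, the major α-factor gene, had 0.533 to 1.76 CPM in Hh lines (median 0.907, n = 15) and 2.28 to 10.0 CPM in HH lines other than HH1 (median 5.03, n = 20), with no overlap. STE3 had 1.04 to 7.29 CPM in Hh lines (median 3.11) and 6.66 to 25.3 CPM in HH lines other than HH1 (median 13.4), with a narrow overlap. MFA1 had 1.65 to 8.01 CPM in Hh lines (median 3.51) and 5.91 to 23.2 CPM in HH lines other than HH1 (median 18.1). These differences between sets of lines were not tested, and the strains were compared through their ancestors. Within HH, MF(ALPHA)2 had 7.42 to 11.5 CPM in X lines and 2.36 to 5.97 CPM in SC lines other than HH1, and SAG1 had 64.5 to 84.9 CPM in X lines and 41.7 to 63.8 CPM in SC lines other than HH1. Neither pair of ranges overlapped.

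**Figure D1:**
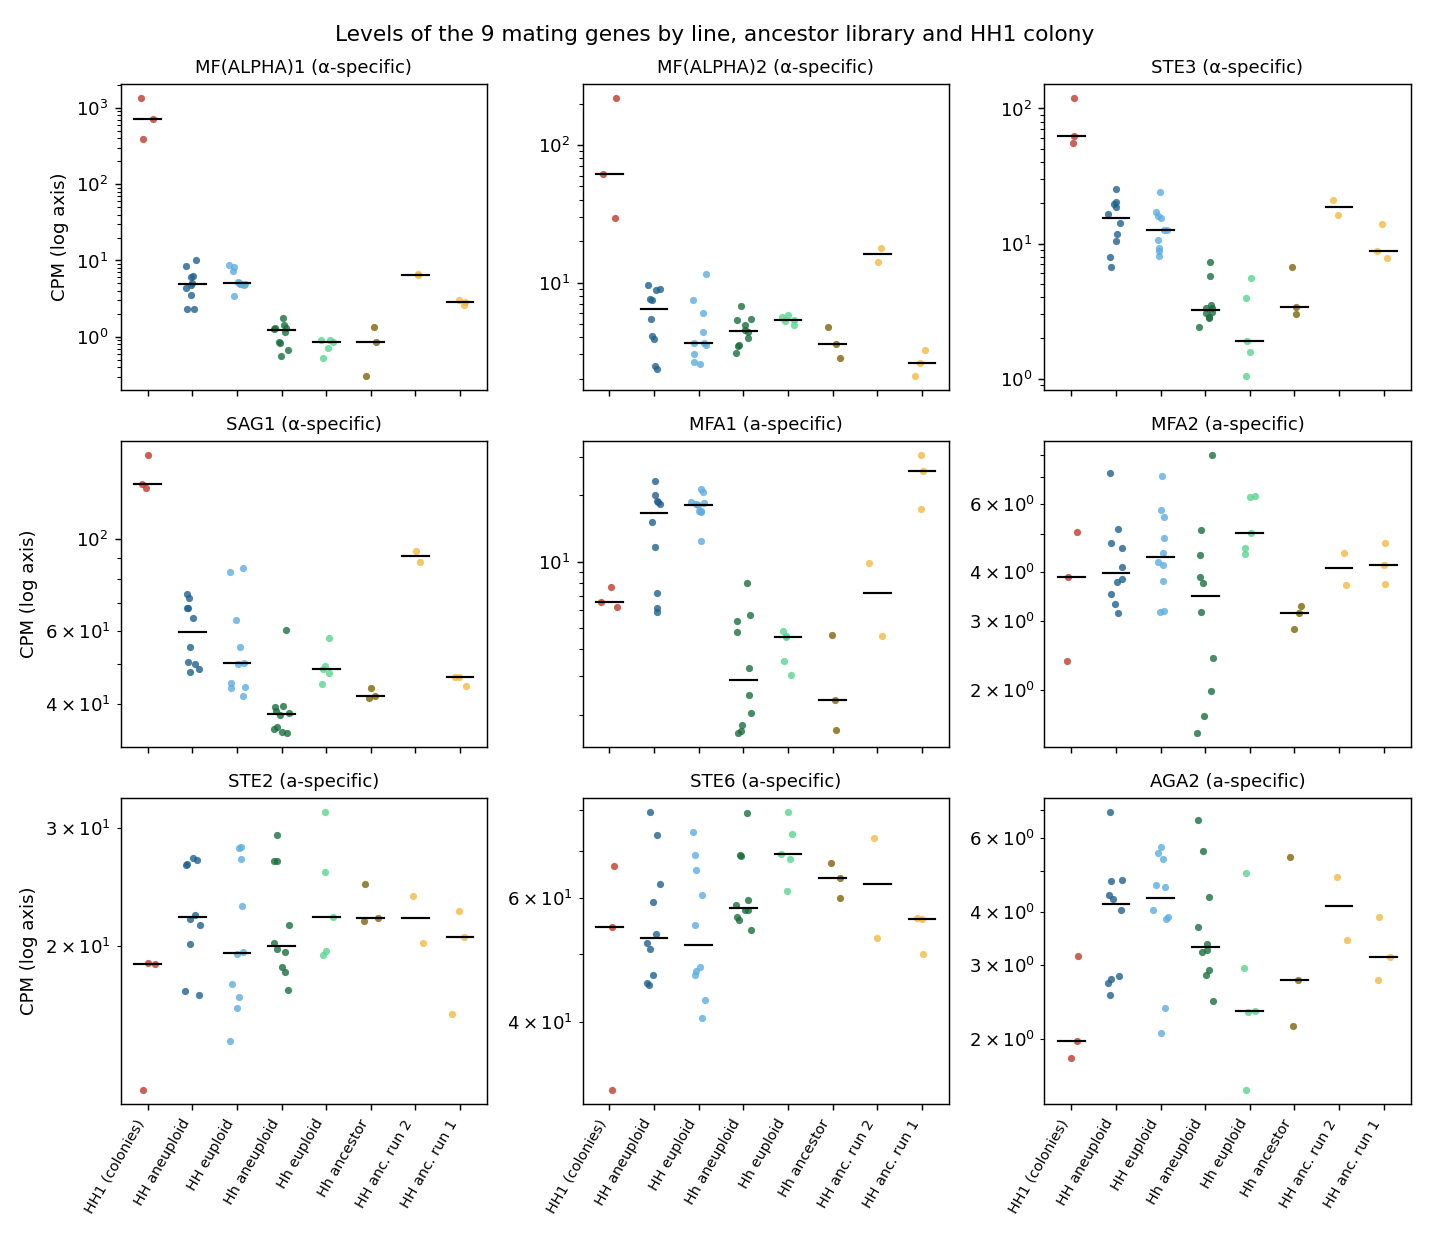
CPM on a log axis of each of the 9 genes (1 panel each) in the 3 colonies of HH1, in line means of the HH aneuploid, HH euploid (without HH1), Hh aneuploid and Hh euploid lines, and in libraries of the Hh ancestor and of runs 2 and 1 of the HH ancestor, with a bar at each median. The HH1 colonies stand above all other points in the panels of the α-specific genes, with MF(ALPHA)1 at 387 to 1367 CPM, and lie within or near the range of the HH lines in those of the a-specific genes.

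HH1 is labelled as a euploid HH line. In its 3 colonies all 4 α-specific genes were above every other line, by the widest margin for MF(ALPHA)1, and the a-specific genes were not. MF(ALPHA)1 had 1367, 387 and 722 CPM in HH1, against 2.28 CPM in the lowest, 4.85 in the median and 8.73 in the highest of the 13 other SC lines. The mean of HH1 was 170-fold the median of those lines, a log2 difference of 7.41. The colonies of HH1 differed among themselves but each was more than an order of magnitude above the highest library outside HH1, at 14.8 CPM among 113 libraries. MF(ALPHA)2, the minor α-factor gene, had 222, 61.9 and 29.3 CPM in HH1, against 2.36, 3.61 and 5.97 CPM in the lowest, median and highest of the other SC lines (28.9-fold the median, log2 4.85). Colony 1 was highest for both α-factor genes, and colony 3 was lowest for MF(ALPHA)2 but not for MF(ALPHA)1.

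STE3, the a-factor receptor, had 55.8, 62.4 and 121 CPM in HH1, against 7.93, 11.8 and 18.5 CPM in the lowest, median and highest other SC line (6.77-fold the median). SAG1, α-agglutinin, had 136, 160 and 132 CPM in HH1, against 41.7, 49.9 and 63.8 CPM (2.86-fold). For both genes every colony of HH1 was above the highest of the 113 other libraries, which held 42.3 CPM for STE3 and 102 CPM for SAG1. SAG1, with the smallest fold of the 4 genes, had the highest α-specific level per length in the other HH lines. Per kb of coding length, MF(ALPHA)1 was the highest of the 9 genes in HH1, with a median of 1450 CPM per kb, and AGA2 the lowest, with 7.50.

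MFA1, an a-factor gene, had 7.65, 6.22 and 6.53 CPM in HH1, against 6.16, 18.5 and 23.2 CPM in the lowest, median and highest other SC line (0.368-fold the median). AGA2, a subunit of a-agglutinin, had 3.15, 1.802 and 1.98 CPM in HH1, against 2.37, 4.40 and 5.52 CPM (0.525-fold). HH1 was lower than 12 of the 13 other SC lines in MFA1 and lower than all of them in AGA2, while single colonies overlapped other libraries in both. MFA2, the other a-factor gene, was at 0.892-fold, STE2, the α-factor receptor, at 0.854-fold and STE6, the a-factor exporter, at 1.08-fold the median of the other SC lines, each within the range of those lines.

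Over 5985 genes with a mean of at least 1 CPM, all 3 colonies of HH1 were above every library of the other SC lines in 33 genes (0.551%) and below every one in 4 genes (0.0668%). The group above held 4 of 4 α-specific and 0 of 5 a-specific genes of the set described here. Because these levels chose the genes, nothing is read from that share. Ranked over the 5985 genes by log2 of HH1 over the median of the other SC lines, with 0.5 CPM added to each, MF(ALPHA)1 was 1, MF(ALPHA)2 was 2, STE3 was 18 and SAG1 was 46 from the top, and MFA1 was 5980.

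The lists of other mating genes were also drawn up with results of HH1 known, and are given by count. AFB1, the α-specific gene of a secreted protein that binds a-factor, had 128, 158 and 134 CPM in HH1, against 7.59, 9.07 and 12.0 CPM in the lowest, median and highest other SC line (15.4-fold). Of 10 haploid-specific genes, 6 had all 3 colonies of HH1 above every other SC library. These were STE18 (27.7-fold the median) and STE4 (2.77-fold), which encode the γ and β subunits of the pheromone G protein, STE5 (5.22-fold), the scaffold of the kinase cascade, FUS3 (3.81-fold), its last kinase, RME1 (21.3-fold), a repressor of meiosis, and NEJ1 (4.56-fold), a factor of DNA end joining. The other 4 were GPA1 at 2.26-fold, HO at 1.38-fold, AXL1 at 1.35-fold and FAR1 at 1.18-fold the median. BAR1, an a-specific protease that degrades α-factor, was at 0.866-fold, and ASG7, another a-specific gene, at 0.508-fold.

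**Figure D2:**
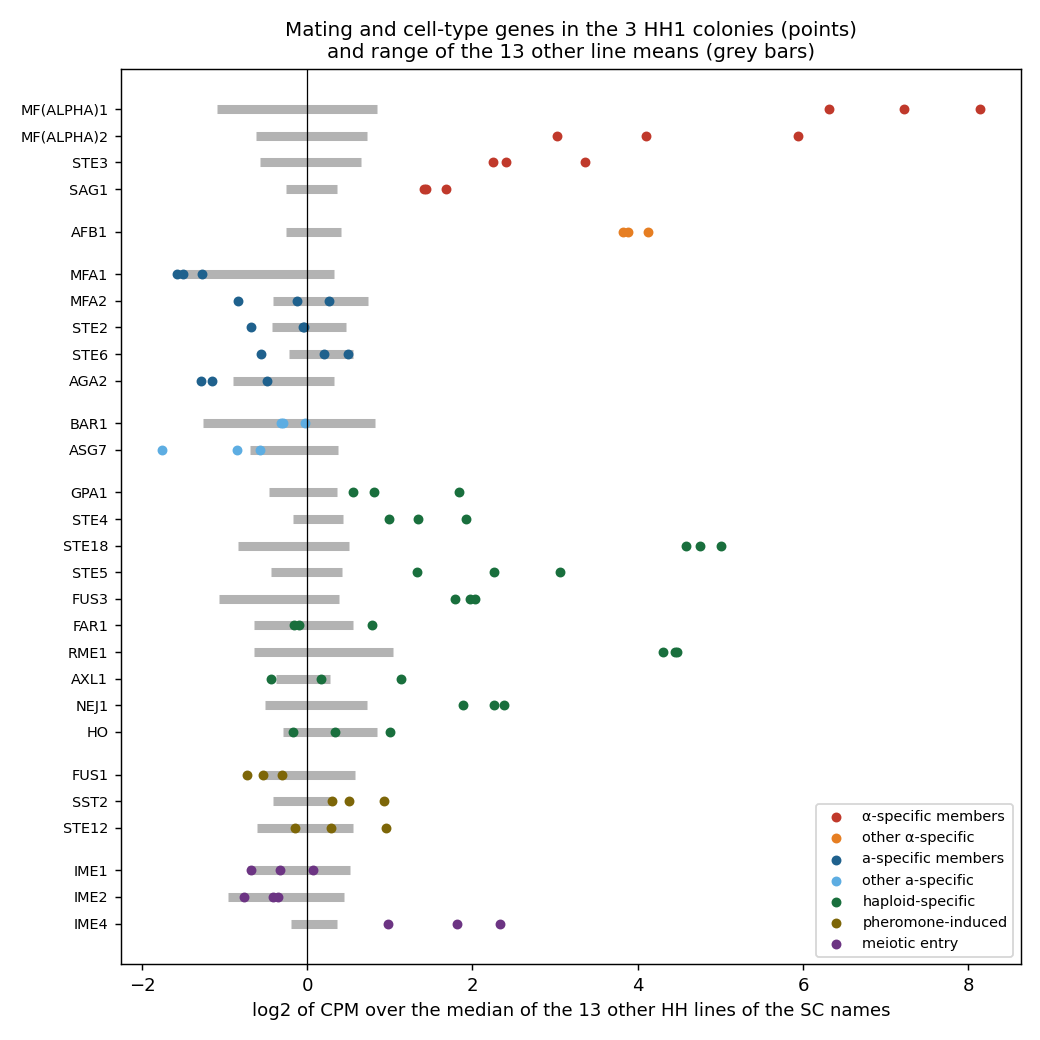
Log2 CPM of each HH1 colony (points) over the median of the 13 other SC lines for the mating genes, grouped by list, with a grey bar for the range of those lines. All points of the α-specific genes and of most haploid-specific genes lie above the bars, up to a mean of 7.41 for MF(ALPHA)1, and those of the a-specific genes lie within or below them.

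HMRA1, the copy of the a1 gene at the silent cassette HMR, had 0 counts in the 3 HH1 libraries (17828868 reads in genes together) and 231 to 1939 counts in each of the 113 other libraries. A floor of 3 counts over the 3 libraries corresponds to 0.168 CPM, against 58.8, 147 and 175 CPM in the lowest, median and highest other SC line. The level in HH1 was thus at least 872-fold lower than that median, and HMRA1 was the last of the 5985 genes in the ranking. None of the 413 stretches of 75 bases of HMRA1 occurs elsewhere in the R64 genome, which carries the α allele at MAT, so that reads of an a1 gene at MAT would also fall to HMRA1. The other 5 of 6 cassette genes, MATALPHA1, MATALPHA2, HMLALPHA1, HMLALPHA2 and HMRA2, were at 0 in all 116 libraries. Every 75-base stretch of these 5 genes occurs at another place in R64, so the counts of unique reads give no measure of α1 or α2 RNA.

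Over 144 genes of chromosome III with a mean of at least 5 CPM, the median log2 level relative to the mean of all SC libraries was 0.04, -0.01 and -0.04 in the 3 colonies of HH1, within the range of -0.08 to 0.18 of the 42 SC libraries outside HH1. Left of MAT (93 genes) it was 0.046, -0.030 and -0.0995, where the other libraries lay between -0.0931 and 0.0996, so colony 3 was just below them. Right of MAT (51 genes) it was -0.03, -0.01 and 0.03, within their range of -0.18 to 0.38. Each is a level relative to the other chromosomes of the same library. The ploidy of HH1 was not measured here. In the authors' FPKM table the 3 HH1 columns held 1392, 921 and 3962 FPKM of MF(ALPHA)1, against 2.85 to 27.6 FPKM in 39 libraries of the other SC lines, and HMRA1 was listed at 0 in all 3. The FPKM columns of colonies 1 and 3 of HH1 matched the count files of each other, so the order of colonies may differ between the files.

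The study's first question was how aneuploid lines differ from euploid lines. Within HH no gene passed an adjusted p of 0.05 by edgeR's quasi-likelihood test with Benjamini-Hochberg adjustment, with lines as replicates (0 of 6268 genes, 0%, 614 at an unadjusted p under 0.05, 1 by DESeq2 and 0 by limma-voom), and 0 of 9 mating genes did (1 at an unadjusted p under 0.05, 0 by DESeq2 and 0 by limma-voom). MF(ALPHA)1 averaged 5.33 ± 2.50 CPM in aneuploid lines (SD, n = 10) and 80.2 ± 247 CPM in euploid lines (SD, n = 11), a log2 difference of -3.74 ± 1.58 (SE, adjusted p = 0.502 by edgeR). That difference rested on HH1, whose levels helped choose the genes, so the fit with HH1 is no test of the class for them. Without it, the euploid lines averaged 5.75 ± 1.73 CPM (SD, n = 10), the log2 difference was -0.41 ± 0.24 (SE, adjusted p = 0.594 by edgeR), and again 0 of 6265 genes (0%) passed.

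The other α-specific genes shifted likewise when HH1 was left out. MF(ALPHA)2 had a log2 difference of -1.54 with HH1 and -0.08 without it, STE3 -0.45 and 0.01, and SAG1 -0.26 and -0.09. The a-specific genes lay near 0 with HH1 included, at -0.13 for MFA1, -0.09 for MFA2, 0.02 for STE2, -0.08 for STE6 and -0.01 for AGA2. The median of the 9 genes was -0.13 with HH1 and -0.08 without it, where the median of all genes tested was 0.01 and 0.02. Of 41 other genes of the mating pathway 36 had a test, and 0 passed in either fit.

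Within Hh, 611 of 6189 genes (9.87%) passed, 261 higher and 350 lower in aneuploid lines, and 0 of 9 mating genes did by edgeR (1 at an unadjusted p under 0.05), DESeq2 or limma-voom. MF(ALPHA)1 had 0.564 to 1.76 CPM in aneuploid lines (median 1.21, n = 10) and 0.533 to 0.917 CPM in euploid lines (median 0.842, n = 5). The ranges overlapped, and the log2 difference was 0.59 ± 0.25 (SE, adjusted p = 0.127 by edgeR). These levels rest on 13 to 41 reads of MF(ALPHA)1 per line, summed over 3 colonies.

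MFA2 had a log2 difference of -0.50 (adjusted p = 0.217 by edgeR), AGA2 of 0.49 (0.273), STE3 of 0.53 (0.348) and SAG1 of -0.19 (0.239). The differences of MF(ALPHA)2 (-0.05), MFA1 (-0.08), STE2 (0.01) and STE6 (-0.04) were closer to 0. The median of the 9 genes was -0.04, and that of all genes 0.04. The number of genes called in Hh ranged from 26 without Hh5 to 1547 without Hh8 among the settings that left out 1 line, and it was 53 without the libraries named above whose chromosomes went against their labels. None of these settings called a mating gene of the set.

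Of the 36 other genes of the pathway with a test, 3 (8.33%) passed in Hh by edgeR, near the 9.87% of all genes. STE4, the β subunit of the pheromone G protein, had 9.91 to 22.3 CPM in aneuploid lines (median 12.3) and 7.33 to 10.5 CPM in euploid lines (median 9.25), and rose by 0.70 in log2 (adjusted p = 0.0322 by edgeR). KEX2, the protease that cuts the α-factor precursor, had 52.1 to 104 CPM in aneuploid lines (median 61.9) and 82.5 to 129 CPM in euploid lines (median 119), and fell by 0.54 in log2 (adjusted p = 0.0283 by edgeR). Aneuploid and euploid lines overlapped in both genes. SIR2, a silencing deacetylase that acts at the mating cassettes, rose by 0.45 (adjusted p = 0.0405 by edgeR). All 3 calls were lost without Hh2, without Hh3, without Hh5 (adjusted p = 0.11, 0.0785 and 0.113 for STE4, KEX2 and SIR2) and without the libraries whose chromosomes went against their labels (0.0896, 0.0644 and 0.0681). The call of STE4 was also lost without Hh49 (0.0506), and that of SIR2 was lost in 11 of 15 fits without 1 line. With total-count scaling STE4 (0.0672) and SIR2 (0.112) were not called.

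**Figure D3:**
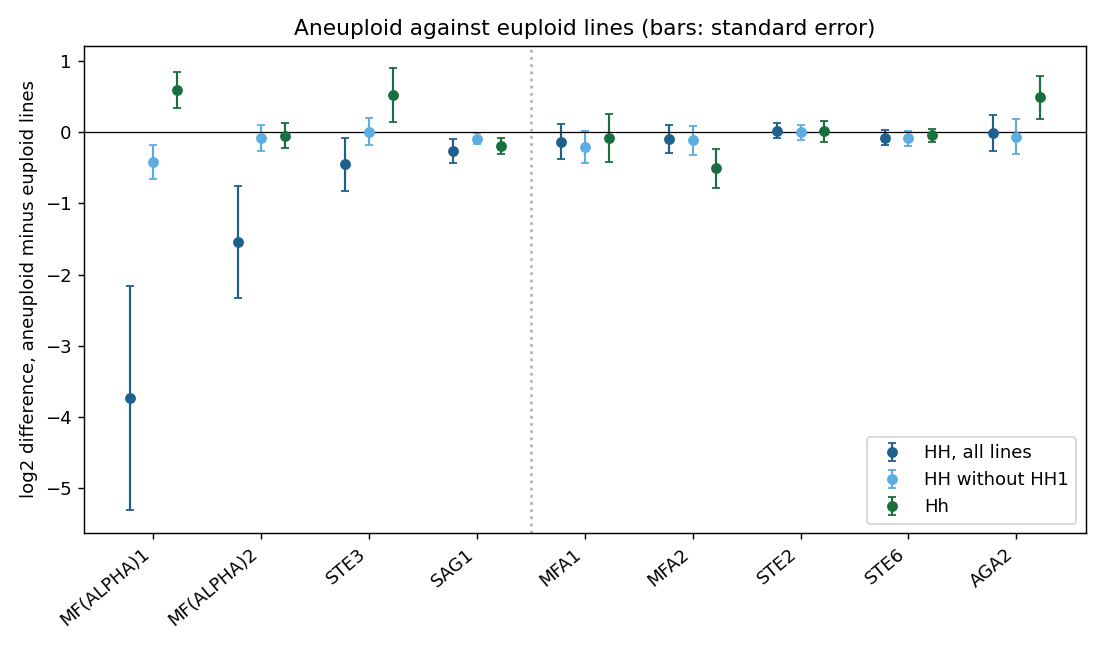
Log2 difference between aneuploid and euploid lines, with its SE, of the 9 mating genes in HH with all lines, in HH without HH1 and in Hh. The α-specific genes of HH lie below 0 with all lines, at -3.74 for MF(ALPHA)1, and close to 0 without HH1, and no difference in the plot passed an adjusted p of 0.05.

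The difference of the class effects, Hh minus HH, passed in 324 of 6370 genes (5.09%) and in 0 of 9 mating genes by edgeR (1 at an unadjusted p under 0.05), DESeq2 or limma-voom. For MF(ALPHA)1 it was 4.36 in log2 (adjusted p = 0.128 by edgeR) with HH1 and 1.03 ± 0.36 (SE, adjusted p = 0.0871 by edgeR) without it. Here too the fit with HH1 is no test for the mating genes of the set. Without HH1, 281 of 6369 genes (4.41%) passed. KEX2 passed with all lines, at -0.66 (adjusted p = 0.0123 by edgeR).

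The ancestors give the comparison of the strains before mutation accumulation. The Hh ancestor had lower levels of all 4 α-specific genes than the HH ancestor of run 2, and 0 of 5 a-specific genes passed. All reads were placed on the same reference genome, sacCer3, although the strains differ in origin. Whether this lowers the counts of some genes in Hh was not tested. Reads without a unique place made up 33.9% and 40.4% of the run 2 libraries and 16.8% to 21.0% of those of run 1. In the Hh ancestor they made up 7.97% to 17.9%. That share thus differs along with strain and run, and its effect on the levels was not tested. Differences were widespread, since 3025 of 6046 genes (50.0%) passed by edgeR, 1500 higher and 1525 lower (25.2%) in the Hh ancestor. Under total-count scaling the split was 1160 higher and 1881 lower. The count of 4 of 9 mating genes is close to the share of all genes that passed. MF(ALPHA)1 had 1.33, 0.306 and 0.858 CPM in the Hh ancestor, against 6.38 and 6.58 CPM in run 2 of the HH ancestor (log2 difference -2.75 ± 0.45, SE, adjusted p = 3.81e-04 by edgeR). The Hh values rest on 15, 3 and 6 reads.

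MF(ALPHA)2 had 2.84, 3.58 and 4.72 CPM in the Hh ancestor, against 14.2 and 17.9 CPM in run 2 of the HH ancestor (log2 difference -1.96 ± 0.31, SE, adjusted p = 3.17e-04 by edgeR). STE3 had 6.67, 3.37 and 3.00 CPM against 21.0 and 16.3 CPM (log2 difference -1.91 ± 0.37, SE, adjusted p = 0.00126 by edgeR). SAG1 had 41.2, 41.8 and 43.6 CPM against 88.0 and 93.7 CPM (log2 difference -0.94 ± 0.14, SE, adjusted p = 2.36e-04 by edgeR). In none of the 4 genes did the libraries of the Hh ancestor overlap those of run 2. The 4 calls against run 2 held in all 8 fits that left out 1 ancestor library, those leaving out a library of run 1 among them.

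MFA1 had 4.62, 2.35 and 1.72 CPM in the Hh ancestor, against 9.80 and 4.58 CPM in run 2 of the HH ancestor, and missed the threshold (log2 difference -1.11 ± 0.44, SE, adjusted p = 0.0543 by edgeR). It passed with the replicate number as a block (adjusted p = 0.0217) and with DESeq2 (0.0257). Its ranges overlapped by a narrow margin. MFA2 (-0.25), STE2 (0.22), STE6 (0.18) and AGA2 (-0.08) had adjusted p of 0.399 to 0.897 by edgeR.

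The choice of the run of the HH ancestor changed several of these values. Run 1 of the HH ancestor had 2.84, 3.05 and 2.60 CPM of MF(ALPHA)1, 2.09, 3.22 and 2.60 CPM of MF(ALPHA)2, and 46.5, 46.5 and 44.1 CPM of SAG1, all well below run 2. Against run 1, 3677 of 6046 genes (60.8%) passed by edgeR. There MF(ALPHA)1 was lower in the Hh ancestor by a log2 difference of -1.80 (adjusted p = 0.00475) and STE3 of -1.28 (0.00799), while MF(ALPHA)2 (0.39, adjusted p = 0.322) and SAG1 (-0.20, adjusted p = 0.210) no longer passed. MFA1, with 30.6, 17.3 and 25.9 CPM in run 1 of the HH ancestor, passed against that run (-3.11, adjusted p = 4.5e-05 by edgeR).

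Among the other mating genes, AFB1 was lower in the Hh ancestor against both runs, at -3.29 against run 2 (adjusted p = 7e-06 by edgeR) and -2.75 against run 1. BAR1 was lower against run 2, at -0.91 (adjusted p = 0.0215 by edgeR). In run 1 it had 9.56, 8.82 and 8.57 CPM, within the range of the Hh ancestor (5.96, 9.91 and 11.6 CPM). HMRA1, the a1 gene, was higher against run 2 (0.95, adjusted p = 0.0126) and lower against run 1 (-0.97). Of 10 haploid-specific genes 5 passed against run 2, the same share as the 50.0% of all genes, with RME1, FUS3 and HO higher and STE4 and STE5 lower in the Hh ancestor.

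Within an experiment, lines can differ from each other more than their colonies do. Over the 15 Hh lines, 3275 of 6097 genes (53.7%) differed among lines by an F test in edgeR, and 4 of 9 mating genes did. SAG1 was highest in Hh8 (53.7, 62.1 and 64.6 CPM) and lowest in Hh76 (33.8, 29.8 and 38.2 CPM), with an adjusted p of 0.00443 by edgeR. STE3 was highest in Hh76 (5.53, 6.06 and 10.3 CPM) and lowest in Hh5 (0.561, 1.49 and 1.08 CPM), with an adjusted p of 0.0323 by edgeR. In both genes the colonies of the highest line did not overlap those of the lowest.

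MFA1 was highest in Hh8 (7.28, 11.4 and 5.36 CPM) and lowest in Hh61 (2.01, 1.48 and 1.46 CPM), with an adjusted p of 0.0289 by edgeR. MFA2 was highest in Hh8 (13.2, 3.49 and 7.33 CPM) and lowest in Hh49 (1.56, 1.82 and 1.27 CPM), with an adjusted p of 0.0321 by edgeR. All 4 calls were lost in each fit that left out 1 replicate number of every line, where adjusted p ranged from 0.0535 to 0.306 over the 4 genes. The share of 4 of 9 is near the background.

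Over the 13 SC lines of HH other than HH1, 4481 of 6021 genes (74.4%) differed among lines by edgeR, and 5 of 9 mating genes did. STE6 (adjusted p = 0.00126) was highest in HH4 (66.2, 76.0 and 65.3 CPM) and lowest in HH11 (38.2, 41.6 and 41.8 CPM). MFA1 (0.00284) was highest in HH119 (19.2, 21.3 and 29.0 CPM) and lowest in HH108 (2.75, 8.43 and 7.30 CPM). MF(ALPHA)1 (0.00494) was highest in HH28 (9.58, 9.06 and 7.56 CPM) and lowest in HH108 (1.18, 3.24 and 2.44 CPM). In these 3 genes the colonies of the highest line stood above all colonies of the lowest. STE2 (0.00458) was highest in HH4 (26.3, 29.8 and 24.9 CPM) and lowest in HH5 (12.1, 17.3 and 13.8 CPM), and AGA2 was at 0.0497, but at 0.0913 with total-count scaling and 0.0521 with no filter on low counts. In fits that left out 1 replicate number, 1 to 4 of the 9 genes passed.

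Over the 7 X lines of HH, 6 of 6136 genes (0.0978%) differed among lines by edgeR, and 0 of 9 mating genes did, also at an unadjusted p under 0.05. The fit on total-count scaling called 5 genes and 0 mating genes. Same-numbered colonies of these lines often deviated together (r over 0.1 in 54 of 63 pairs), and these fits have no term for the replicate number. DESeq2 and limma were not run on these differences among lines.

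Lines were then set one by one against their own ancestor, taking the ancestor run that matches the name series. Over the 20 HH lines other than HH1, 2911 of 124060 pairs of a gene and a line (2.35%) passed by edgeR, and 1 of them was a mating gene. That count rests on the assumed match of SC and X lines to the ancestor's runs, since 12 pairs with a mating gene passed with every HH line against run 1 and 18 against run 2. MFA1 had 2.75, 8.43 and 7.30 CPM in HH108, against 30.6, 17.3 and 25.9 CPM in run 1 of the HH ancestor, with no overlap (log2 difference -2.03 ± 0.66, SE, adjusted p = 0.0139 by edgeR). HH108, labelled trisomic for VIII and monosomic for IX, also had 2118 of 6203 genes called (34.1%), and MFA1 lies on neither of those chromosomes. The call was lost without replicate 1 (adjusted p = 0.147), and against run 2 the difference was -0.04 (adjusted p = 0.983).

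Over the 15 Hh lines, 2163 of 91470 pairs (2.36%) passed by edgeR, and 1 of them was a mating gene. STE3 had 0.561, 1.49 and 1.08 CPM in Hh5, a euploid line, against 6.67, 3.37 and 3.00 CPM in the Hh ancestor, with no overlap (log2 difference -2.19 ± 0.72, SE, adjusted p = 0.0331 by edgeR). Hh5 had 1176 of 6098 genes called (19.3%). The call was lost without replicate 1 (adjusted p = 0.386) and without replicate 2 (0.113). The levels of STE3 in Hh5 rest on 25 reads over 3 colonies.

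STE2 and STE6 were the steadiest of the 9 genes against the ancestors, with log2 differences within -0.45 to 0.38 for STE2 and -0.37 to 0.37 for STE6 over the lines of both experiments. The ranges of the shorter or scarcer genes were wider, at -1.42 to 0.98 for AGA2, -0.88 to 1.11 for MFA2, -2.03 to 1.45 for MFA1, -2.19 to 0.86 for STE3 and -0.76 to 1.77 for MF(ALPHA)1. MF(ALPHA)2 lay between -1.15 and 1.23 and SAG1 between -0.56 and 0.39.

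**Figure D4:**
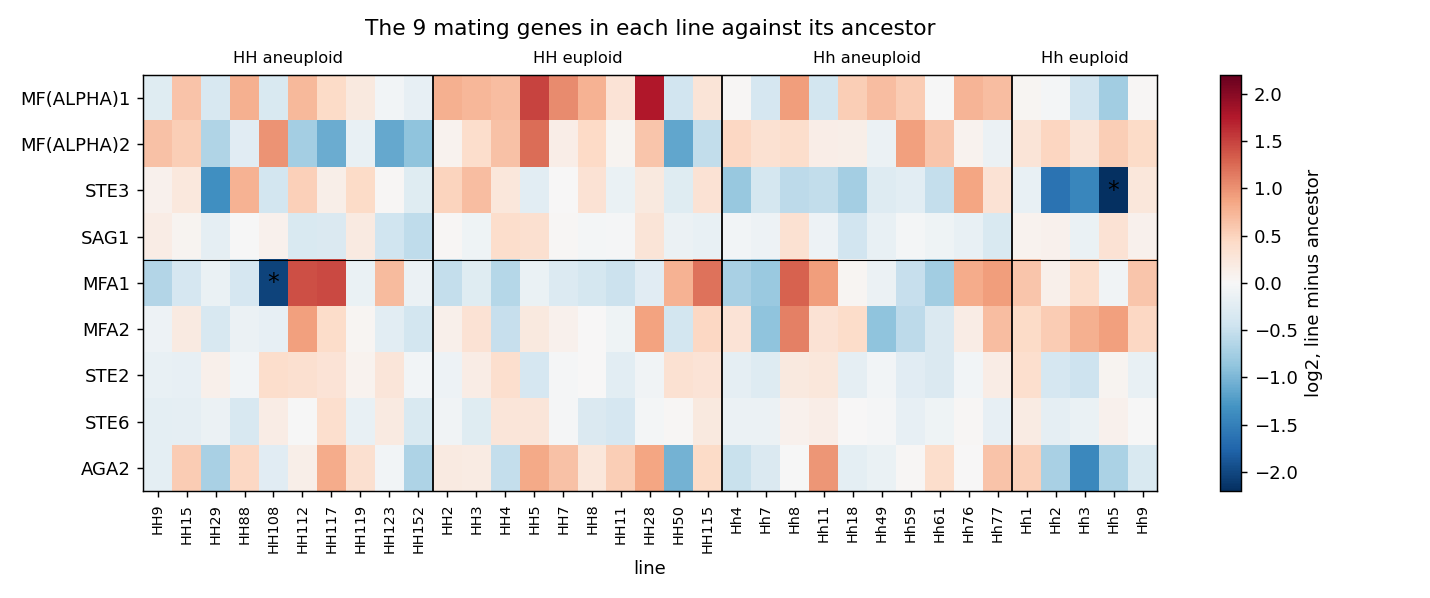
Log2 difference of each of 35 lines (without HH1) from its own ancestor for the 9 mating genes, with an asterisk at an adjusted p under 0.05. MFA1 in HH108 (-2.03) and STE3 in Hh5 (-2.19) carry the asterisks, and STE2 and STE6 stay close to 0 in every line.

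Some lines are labelled with an altered copy number of a chromosome that carries a mating gene, and a level in proportion to copies would give a log2 difference of 0.585 for 3 copies and 1.0 for 4. MF(ALPHA)1 on XVI was at 0.92 in Hh8, with 4 copies, where the other 14 Hh lines lay between -0.76 and 0.74, and at 0.71 in HH112, with 3 copies, within the range of -0.41 to 1.77 of the other 19 HH lines. MF(ALPHA)2 on VII was at 0.90 in Hh59 and 0.62 in Hh61, both labelled with 3 copies, where the other 13 Hh lines lay between -0.13 and 0.54. In replicate 1 of Hh59, chromosome VII had the gene levels of 2 copies (median log2 -0.01), so the values of Hh59 mix copy states. AGA2, also on VII, was at 0.03 in Hh59 and 0.39 in Hh61, within the range of -1.42 to 0.98 of the other lines.

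In HH152, whose chromosome VII had the gene levels of 2 copies against its label, MF(ALPHA)2 was at -0.89 and AGA2 at -0.68, both within the range of the other 18 HH lines. MFA2 on XIV was at -0.11 in HH9 and 0.16 in Hh76, both with 3 copies. Hh76 is also labelled with a partial X, the chromosome of SAG1, without the part or the copies, and SAG1 was at -0.16 there (adjusted p = 0.927 by edgeR). None of the 10 pairs with a labelled copy number passed an adjusted p of 0.05 by edgeR, the lowest being 0.374 for MF(ALPHA)1 in Hh8.

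The genes whose profiles over lines were most like those of the mating genes were named by Pearson's r with the mean profile of each set, and are given with no test. Over the 21 HH lines, those nearest to the α-specific profile were YFL063W (0.97), AFB1 (0.96), STE18 (0.96), YPR027C (0.93) and NFG1 (0.91), a likeness that includes HH1. Without HH1, over 20 lines, they were PBY1 (0.92), FDC1 (0.91), YOR121C (0.91), KIP2 (0.91) and YGL165C (0.91). IME1, the inducer of meiosis, was nearest to the a-specific profile over 21 lines (0.82) and the fifth without HH1 (0.85). The HH lines mix the SC and X name series, so lines of a series share that as well as their libraries' depth.

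Over the 15 Hh lines, PLB1 (0.81), RPL36B (0.77), AXL1 (0.76), SPR28 (0.73) and YJL043W (0.73) were nearest to the α-specific profile. YOR338W (0.94), MRX8 (0.93), EUC1 (0.93), ROX3 (0.92) and LRP1 (0.92) were nearest to the a-specific profile. No gene was among the nearest 5 of both HH and Hh for either profile.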

How the data were processed

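RNA of 116 libraries was analysed from the deposited files. The deposited counts are whole numbers of reads per gene, and the submitters' processing notes name TopHat2 2.1.1, Trim Galore 0.4.4, HTSeq 0.6.1pl and the build sacCer3, and the authors' FPKM table, per the same notes, goes with Cufflinks and Cuffnorm 2.2.1. Whether reads were counted by strand is not given in the sources. Reads without a unique place, 7.12% to 68.4% of a library, stayed out of library sizes. Their median share was 28.4% in HH X, 19.2% in HH SC and 9.76% in Hh libraries, ancestors included. Of 7126 features, 6086 matched R64, which is the build named sacCer3. Colonies of a line differed by a chi-square per degree of freedom of at least 7.045 over genes with at least 50 counts, so each library counted as its own sample.

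Counts were added up over the 3 colonies of a line, and lines served as replicates between aneuploid and euploid classes, where the HH fit had a term for SC or X. The ancestors, differences among lines (F test) and lines against their ancestor were fitted on single libraries, whose p-values measure the spread between cultures. All fits used edgeR 4.0.16 in R 4.3.3 (quasi-likelihood, robust, TMM, filterByExpr) over all genes, with Benjamini-Hochberg adjustment and a threshold of 0.05. Alternatives were DESeq2 1.42.0, limma-voom 3.58.1, total-count scaling, no filter on low counts, each line, library or replicate left out, the other run, the replicate block and the deposited FPKM. The scripts were tested on simulated data. The labels of HH2 conflict, and its titles were used.

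The genes and the lists of other mating genes were chosen with earlier results of these data known. Named were the 9 genes, the listed genes of their pathway that passed or are needed for a result, and the 5 genes with the most similar profile, among genes reaching 5 CPM in some line. A pseudocount of 0.5 was used for ranks. The floor is 3 counts, and floors cover counting error only.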

Additional observations from a re-analysis of the deposited data

Results flagged for a closer look

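Among the 9 euploid SC lines of HH, HH1 lay far from the other lines in 5 genes, with mean levels of 825 CPM for MF(ALPHA)1, 104 CPM for MF(ALPHA)2, 79.6 CPM for STE3, 143 CPM for SAG1 and, on the low side, 6.80 CPM for MFA1, for which the nearest line was at 16.9 CPM. Outside that group, the aneuploid SC line HH108 was lower in MFA1, at 6.16 CPM, and X lines reached down to 5.91 CPM. The levels of HH1 are those with which the genes were chosen, so they are a description and no test.

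Outside HH1, 3 lines lay far from the others of their group. Groups of lines were examined for all 9 genes (36 groups in all, those with HH1 among them). For normally distributed levels around 1 mean, chance gives such a line in about 1 group in 20. The HH aneuploid groups mix SC and X lines, so that rate need not hold for them, and HH112 and HH117 are X lines. SAG1 was at 60.1 CPM in Hh8, where the nearest of the other 9 Hh aneuploid lines was at 39.6 CPM. MFA2 was at 7.20 CPM in HH112, where the nearest of the other 9 HH aneuploid lines was at 5.16 CPM, and AGA2 at 6.92 CPM in HH117, where the nearest was at 4.76 CPM. Both of these means rest on 1 colony, with 15.4 CPM of MFA2 in a colony of HH112 and 14.5 CPM of AGA2 in a colony of HH117, the highest of the 113 libraries outside HH1 for these genes.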

How the results depend on the processing

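Over 828 settings of single mating genes, 743 kept their direction and their side of the threshold, 51 reversed, 23 lost and 11 gained a call. No setting called a mating gene between classes of lines or for the difference of class effects. In the HH class comparison the reversed values were MF(ALPHA)1 (0.23), MFA2 (0.082), STE2 (-0.118) and AGA2 (0.20) with X lines alone, AGA2 with limma-voom (0.038), total-count scaling (0.015) and without the libraries against their labels (0.0245), and, without HH1 and with DESeq2, a setting chosen after seeing the data, STE3 (0.0103) and STE2 (-0.0036). In Hh they were MF(ALPHA)2 without the libraries against their labels (0.0243) and STE2 with total-count scaling (-0.14). For the difference of class effects they were SAG1 (-0.085), MFA1 (-0.11), STE2 (-0.17) and STE6 (-0.14) with total-count scaling, SAG1 without HH1 (-0.077), and STE2 with no filter (-0.0003) and without the libraries against their labels (-0.0091). The cause was not tested.

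With 1 line left out, log2 differences in HH ranged from -4.27 to -0.41 for MF(ALPHA)1, -1.81 to -0.08 for MF(ALPHA)2, -0.55 to 0.0096 for STE3, -0.22 to 0.006 for MFA1, -0.20 to 0.0003 for MFA2, -0.0573 to 0.0591 for STE2 and -0.16 to 0.11 for AGA2, and in Hh from -0.24 to 0.0112 for MFA1, -0.0658 to 0.15 for STE2 and -0.0878 to 0.0045 for STE6. With 1 ancestor library left out, AGA2 ranged from -0.59 to 0.21 and STE6 from -0.0316 to 0.44. Among the ancestors MF(ALPHA)2 (0.39) and AGA2 (0.0298) reversed against run 1, and AGA2 with the replicate block (0.0742). MFA1 passed with DESeq2 (adjusted p = 0.0257), no filter (0.0498), total-count scaling (0.0303), the replicate block (0.0217) and without 1 library in 3 of 8 fits (0.0139 to 0.0442). Without a replicate number, 0 mating genes differed among Hh lines in each fit, 1 to 4 among SC lines, and 0 to 2 pairs of HH and 0 to 1 of Hh passed against the ancestor. Those pairs were 12 with every HH line against run 1, 18 against run 2, and 2 in Hh with total-count scaling, while HH1 gave a log2 of -1.82 for MFA1 in the deposited FPKM, against -1.44 in counts. MFA1 is listed at 0 FPKM in 2 of the 3 HH1 columns and in 28 libraries in all, so that FPKM value measures no level. AGA2 lost its call among SC lines with total-count scaling (0.0913) and no filter (0.0521).

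Replicate numbers were not taken to pair the samples, because the labels tie them to no shared day or batch. Same-numbered libraries did deviate together in part, with a median r of 0.43 over pairs of X lines, 0.16 of Hh lines and 0.003 of SC lines. Fits without a block leave any such shared deviation in the spread between colonies. An r over 0.1 was found in 54 of 63 pairs of X lines, 173 of 315 of Hh lines and 97 of 273 of SC lines. With the number as a block, 3096 genes differed between ancestors in place of 3025 and 4017 among Hh lines in place of 3275, STE2 with an adjusted p of 0.0366 among Hh lines. The comparisons of classes sum the colonies of a line, and no block was fitted there. Few reads limit MF(ALPHA)1 and STE3 in Hh, and unique reads limit the cassette genes.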
